A study of Mus musculus with 15 samples.

Results

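T cell receptor signalling genes were followed in donor CD4+ T cells that had or lacked AMPKα1, the catalytic subunit of the energy sensor AMP-activated protein kinase that is encoded by Prkaa1. The set held 44 genes of 55421 gene rows counted, listed by mouse symbol: 31 activators, which carry the signal from the receptor to transcription, and 13 brakes, which limit it. All mice were on the C57BL/6 background and, by the study's methods, aged 6 to 8 weeks when used. WT donors carried floxed Prkaa1 alleles (Prkaa1 fl/fl) without Cre, and KO donors carried the same floxed alleles together with CD4-Cre, which is active only in the T cell lineage, from the double-positive thymocyte stage on. Naive CD4+ T cells (CD25- CD44- CD62L+) were transferred into Rag2-/- mice, which have no T or B cells of their own but keep their myeloid and stromal cells. The transfer is a model of colitis. In the study, recipients of WT cells lost weight and had heavy T cell infiltration, while recipients of KO cells kept their weight and had mild inflammation. Donor genotype and disease of the host therefore cannot be told apart in these samples. At 6 weeks after transfer, donor T cells were sorted from spleen and from mesenteric lymph nodes (mLN) and their mRNA was sequenced, giving 4 WT spleen, 4 KO spleen, 3 WT mLN and 4 KO mLN samples. The mLN sample of WT replicate 3 is not among them, and the authors left a WT mLN sample out for quality. The comparisons asked whether loss of AMPKα1 altered expression of the signalling genes in each organ, and whether the organs differed within each genotype.

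When peptide bound to a major histocompatibility complex molecule engages the T cell receptor and its coreceptor CD4, the kinase Lck phosphorylates the CD3 and zeta chains, and Zap70 docks there and phosphorylates the adaptors Lat and Lcp2 (SLP-76). The adaptor complex recruits phospholipase C gamma (Plcg1), which produces a calcium signal and diacylglycerol. Calcium activates the NFAT transcription factors through calcineurin, and diacylglycerol activates Rasgrp1, the entry to the Ras pathway, and protein kinase C theta (Prkcq), which drives NF-κB through Bcl10 and Malt1. Brakes act at each step: Csk, held at the membrane by Pag1, phosphorylates the inhibitory site of Lck, phosphatases reverse the phosphorylation, the ubiquitin ligases Cbl and Cblb mark signalling proteins, and diacylglycerol kinases (Dgka, Dgkz) remove diacylglycerol.

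Promoter windows were taken from RefSeq (GRCm38.p6) for 33 of the 44 genes, each from 250 bases before to 50 bases after the annotated start, and were searched on both strands for GGAAA, the core that NFAT proteins bind. So short a motif is common. Of all 32851 windows of this length, 61.3% held GGAAA or its reverse complement TTTCC, and of the 33 windows of the signalling genes 23 did (69.7%). Any GGAAA match also contains the shorter ETS core GGAA. The windows of 5 genes are shown because their level differed between organs or genotypes: Nfatc2 (chr2:168601608-168601907, minus strand), Cbl (chr9:44233997-44234296, minus strand), Plcg1 (chr2:160731060-160731359, plus strand), Cd3d (chr9:44981536-44981835, plus strand) and Csk (chr9:57653582-57653881, minus strand). Each runs 5′ to 3′ along its gene, with every GGAAA or TTTCC in capitals.
Nfatc2: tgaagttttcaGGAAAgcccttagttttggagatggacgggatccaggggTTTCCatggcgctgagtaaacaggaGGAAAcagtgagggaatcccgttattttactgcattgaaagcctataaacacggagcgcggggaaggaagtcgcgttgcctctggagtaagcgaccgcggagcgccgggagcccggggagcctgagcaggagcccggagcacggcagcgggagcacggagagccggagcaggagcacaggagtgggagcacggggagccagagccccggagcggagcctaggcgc
Cbl: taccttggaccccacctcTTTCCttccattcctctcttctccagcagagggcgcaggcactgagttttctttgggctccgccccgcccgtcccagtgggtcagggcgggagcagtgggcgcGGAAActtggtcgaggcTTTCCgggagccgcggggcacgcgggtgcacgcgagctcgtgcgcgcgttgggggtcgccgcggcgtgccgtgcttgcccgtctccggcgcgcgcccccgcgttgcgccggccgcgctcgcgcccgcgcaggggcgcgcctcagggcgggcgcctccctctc
Plcg1: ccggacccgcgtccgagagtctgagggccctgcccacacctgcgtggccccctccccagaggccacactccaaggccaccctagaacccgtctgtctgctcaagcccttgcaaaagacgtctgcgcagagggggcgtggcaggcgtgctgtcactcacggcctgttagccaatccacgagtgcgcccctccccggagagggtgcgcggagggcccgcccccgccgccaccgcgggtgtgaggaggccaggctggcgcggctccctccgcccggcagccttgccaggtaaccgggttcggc
Cd3d: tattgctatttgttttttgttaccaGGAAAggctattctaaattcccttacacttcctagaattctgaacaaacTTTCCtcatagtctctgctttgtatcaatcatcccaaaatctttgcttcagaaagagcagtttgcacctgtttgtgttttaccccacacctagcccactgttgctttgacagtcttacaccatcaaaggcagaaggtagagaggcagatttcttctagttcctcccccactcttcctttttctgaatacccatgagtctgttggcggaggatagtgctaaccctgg
Csk: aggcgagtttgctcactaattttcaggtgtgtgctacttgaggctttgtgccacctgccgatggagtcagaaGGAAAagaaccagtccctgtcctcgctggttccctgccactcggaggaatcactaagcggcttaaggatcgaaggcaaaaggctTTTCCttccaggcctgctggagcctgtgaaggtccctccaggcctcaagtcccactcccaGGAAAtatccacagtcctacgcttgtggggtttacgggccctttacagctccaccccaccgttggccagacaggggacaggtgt
The Nfatc2, Cbl and Csk windows each held 3 matches, the Cd3d window 2 and the Plcg1 window 0. Of the genes lower in mLN than in spleen in both genotypes, 6 had a window and 5 of these held a match, and so did 2 of 2 windows of genes higher in mLN in both. The Grap2 window among these lies far from the outermost start of its gene model. A match is a run of letters and describes no binding.

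Between 9363940 and 11283439 reads per sample were assigned to genes, and all 44 genes were tested in every comparison. Levels are given in CPM, read counts scaled to each sample's total on genes, with that total adjusted by a TMM normalization factor. Prkaa1 checked the genotypes: it stood at 46.6 to 53.4 CPM in WT spleen, 18.5 to 21.2 in KO spleen, 50.9 to 60.6 in WT mLN and 21.4 to 32.3 in KO mLN, with no overlap between genotypes. The summed level of 5 CD4+ T cell markers was 4068 to 6001 CPM over all samples, and that of 6 B cell markers at most 9.89 CPM. Markers of other cells varied with the groups. The sum of 7 myeloid markers was 191 to 619 CPM in spleen and 96.1 to 252 CPM in mLN. The sum of 5 red cell markers was 86.9 to 1851 CPM in WT spleen (median 483) and 39.2 to 104 CPM in KO spleen (median 51.4). In mLN it reached 803 CPM in 1 WT sample (WT median 31.8) and at most 71.0 CPM in KO (median 49.4). Cd8a and Cd8b1 together made up 19.5 to 28.3 CPM in KO mLN and 7.31 to 11.5 CPM in WT mLN, and no more than 4.96 CPM in spleen. The difference in mLN lay in Cd8a (16.5 to 23.1 CPM in KO and 0.305 to 8.46 CPM in WT). Cd8b1 overlapped between genotypes there (1.49 to 6.995 CPM in KO and 3.05 to 7.007 CPM in WT). The part of these cells in the results that follow was not tested. In bulk samples of this kind, fewer cells of a type and less RNA per cell cannot be told apart.

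Per kilobase of exon, the signalling genes spanned a wide range of levels with several receptor-proximal genes on top. Not all of these ranked high: Cd247, the zeta chain, had rank 22 of the 44 in WT spleen (61.1 CPM per kilobase). In WT spleen, Lck (572 ± 56.7 CPM per kilobase, SD, n = 4) and Lat (565 ± 60.4) led, followed by Cd2, Cd3e, Cd3g, Cd3d and Cd4, the last at 259 ± 22.8 CPM per kilobase. The means of Lck and Lat lay within 1 SD of each other. Sos1, a Ras exchange factor, was the lowest of the 44 in every group (1.42 to 1.79 CPM per kilobase), and Pag1 or Ubash3b came next above it. Lck, Lat, Cd2 and either Cd3e or Cd3d filled the first 4 places in all 4 groups.

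Splenic KO T cells differed little from WT in the signalling genes. Csk, the brake on Lck, was the single gene of the 44 that passed the test (edgeR quasi-likelihood, Benjamini-Hochberg adjusted p below 0.05 over all genes), and it was higher in KO. Of all 14254 genes tested, 1.3% were called (0.547% higher and 0.751% lower in KO), so 1 call among 44 is near the background. The median log2 fold change of the 44 genes was 0.04, with a median size of 0.09, against medians of 0.00 and 0.16 over all genes tested.

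Csk stood at 146, 154, 166 and 156 CPM in WT spleen and at 189, 208, 197 and 205 CPM in KO spleen. Every KO sample lay above every WT sample. The difference came to 28.3% (log2 fold change 0.36 ± 0.06 SE, edgeR adjusted p = 0.0391). The call was lost in 7 of the 8 fits that left out 1 sample (adjusted p 0.0229 to 0.110, lowest without WT spleen replicate 3), while the log2 fold change stayed between 0.33 and 0.39. In mLN, Csk was 141, 131 and 123 CPM in WT and 138, 146, 161 and 165 CPM in KO, where the groups overlapped and the difference was not called (log2 fold change 0.21 ± 0.10, adjusted p = 0.317).

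Among the genes of the receptor complex, Cd4, which encodes the coreceptor, showed no overlap between genotypes in either organ. It was 1140, 962, 1109 and 972 CPM in WT spleen and 1196, 1226, 1169 and 1216 CPM in KO spleen. In mLN it was 1065, 1007 and 1069 CPM in WT and 1278, 1302, 1270 and 1200 CPM in KO. The KO level was above WT by 14.8% in spleen and 20.6% in mLN, and neither difference passed the adjusted threshold (edgeR adjusted p = 0.168 and 0.0972). The signal-transducing chains Cd3d, Cd3e, Cd3g and Cd247 had log2 fold changes between -0.09 and 0.08 in both organs, with no call.

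In mLN, edgeR called 0 of the 44 genes between KO and WT, against 0.641% of 14359 genes tested (0.348% higher and 0.292% lower). At an unadjusted p below 0.05 there were 9 genes (20.5%), against 2253 of all genes (15.7%). Of these 9, Cd2 (log2 fold change -0.23), Txk (-0.36) and Ptpn22 (-0.18) were lower in KO and the others were higher. DESeq2 called 2, Cd4 and Nfatc2, both higher in KO, against 588 of all genes (4.09%). A fit of all 15 samples called the same pair, with edgeR adjusted p = 0.0441 for Cd4 and 0.0266 for Nfatc2. The median log2 fold change of the 44 genes was 0.07, and 31 lay above 0. Over all 14359 genes tested the median was -0.004, and 7115 lay above 0.

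Nfatc2, encoding the NFAT family member NFAT1, had the smallest p of the 44 genes in mLN. Its level was 77.3, 74.7 and 78.1 CPM in WT mLN and 94.1, 99.3, 103 and 108 CPM in KO mLN. The WT samples lay within 4 CPM of each other and below all KO samples. The KO level was 31.8% above WT (log2 fold change 0.40 ± 0.09, edgeR adjusted p = 0.0792). In spleen Nfatc2 ranged from 165 to 218 CPM in WT and from 223 to 257 CPM in KO, again without overlap (log2 fold change 0.27 ± 0.09, adjusted p = 0.13). The other NFAT genes were closer to WT, with log2 fold changes in spleen and mLN of 0.05 and 0.09 for Nfatc1 and -0.08 and -0.15 for Nfatc3.

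An unadjusted p below 0.05 and a higher mean in KO in both organs was found for 4 of the 44 genes, Cd4, Nfatc2, Csk and Ptpn6 (9.09%), and for 449 of the 13759 genes tested in both (3.26%). With either direction allowed, it was 4 of the 44 genes (9.09%) and 1022 of the 13759 (7.43%), so the share is near the background. The count was made after the values were seen, and the labels do not say whether the organs came from the same mice. The study compared spleen and mLN of each mouse in its receptor repertoire data, so shared mice are likely here too. A difference seen in both organs is therefore not independent support. Ptpn6 encodes the phosphatase SHP-1, a brake. It was 280, 232, 229.5 and 220.1 CPM in WT spleen and 259, 290, 312 and 348 CPM in KO spleen, so that 1 WT sample overlapped the KO range (log2 fold change 0.33 ± 0.10, edgeR adjusted p = 0.12). In mLN it was 269, 261 and 208 CPM in WT and 264, 313, 338 and 351 CPM in KO (log2 fold change 0.36 ± 0.12, adjusted p = 0.193).

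Lck, Zap70, Cd5, Ubash3a and Cd28 differed between genotypes by less than their spread in either organ. Lck, the kinase that starts the cascade, averaged 1675 ± 166 CPM in WT spleen and 1700 ± 117 in KO spleen (SD, n = 4 each), and 1742 ± 177 (n = 3) and 1832 ± 120 (n = 4) in WT and KO mLN. Zap70, the kinase recruited to the phosphorylated chains, averaged 514 ± 68.9, 524 ± 29.0, 495 ± 22.9 and 502 ± 23 CPM in WT spleen, KO spleen, WT mLN and KO mLN. The log2 fold changes between genotypes were at most 0.07 for both kinases, and neither was called.
Of the brakes at the surface and downstream, Cd5 averaged 554 ± 67.4 and 578 ± 116 CPM in WT and KO spleen and 572 ± 11.9 and 579 ± 62.5 CPM in mLN. Ubash3a, a phosphatase-like inhibitor of receptor signalling, averaged 420 ± 59.6 and 404 ± 5.15 CPM in spleen and 440 ± 11.6 and 431 ± 29.6 CPM in mLN. Cd28, the main costimulatory receptor, averaged 427 ± 90.1 and 414 ± 37.1 CPM in spleen and 556 ± 74.1 and 552 ± 32.1 CPM in mLN. Genotypes overlapped for all 3 genes in both organs.

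**Figure D1:**
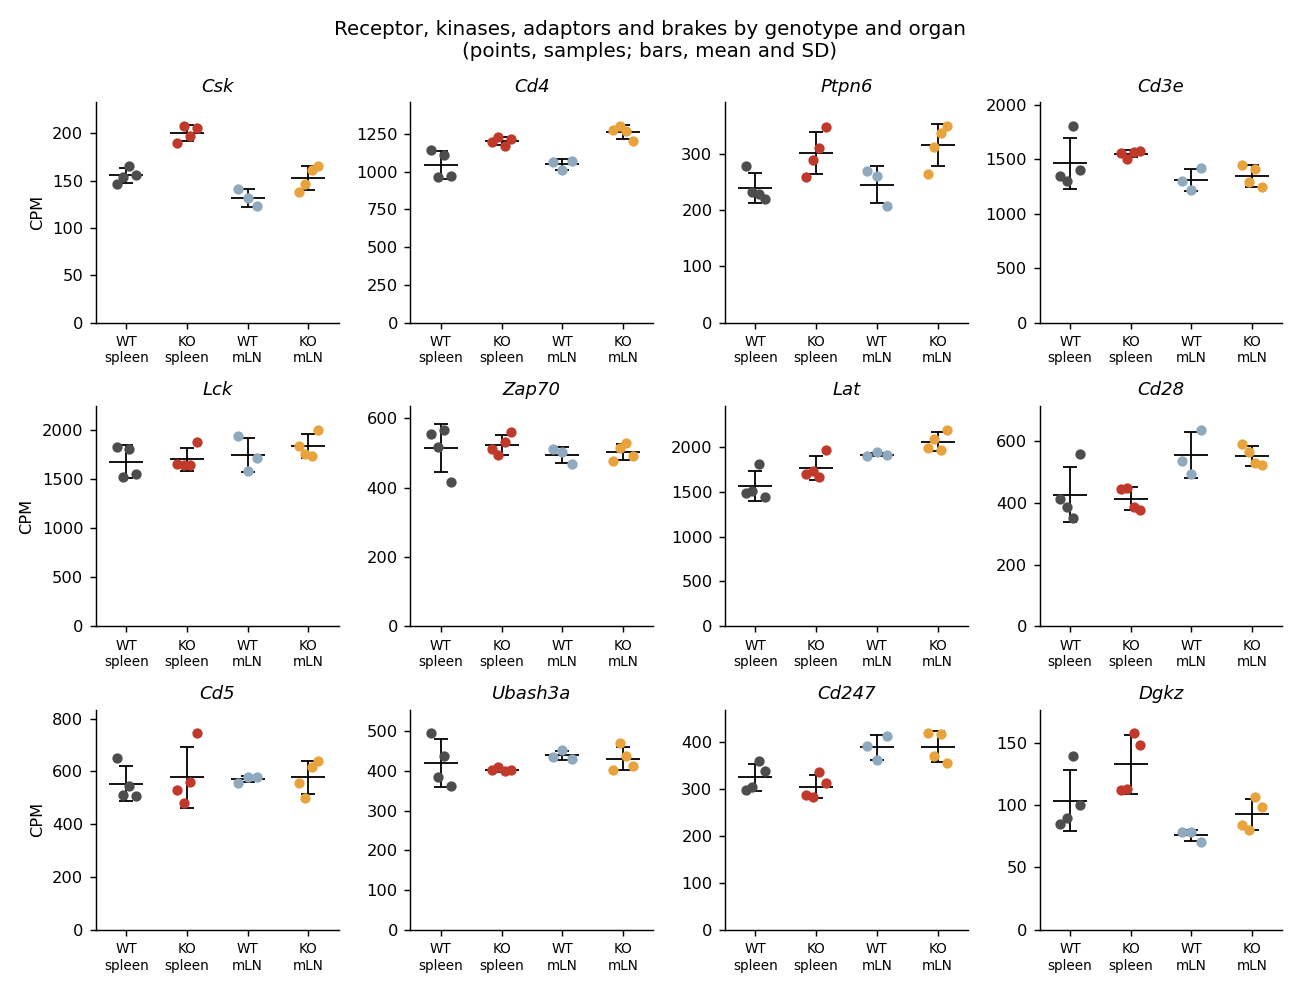
CPM (y axis, from 0) of 12 signalling genes in each sample (points), with the mean and SD (bars), in WT and KO T cells of spleen and mLN (x axis). Csk is higher in every KO spleen sample (189 CPM or more) than in any WT spleen sample (at most 166 CPM), Cd4 does not overlap between genotypes in either organ, and Lck, Zap70, Cd5 and Ubash3a overlap throughout.

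More of the signalling genes were called between organs than between genotypes. In WT T cells, 11 of the 44 genes (25%) were called between mLN and spleen, against 20.5% of 14515 genes tested, and against 28.1% of the 8039 genes at least as abundant as the lowest of the 44, a background chosen after the data were seen. The share is therefore near the background. Higher in mLN were 3 genes (background 9.7%), the CD3 chain Cd3d, the adhesion receptor Cd2 and the diacylglycerol kinase Dgka. Lower in mLN were 8 genes (background 10.8%), the transcription factors Nfatc1 and Nfatc2, the ubiquitin ligases Cbl and Cblb, the Csk anchor Pag1, Plcg1, Rasgrp1 and the adaptor Grap2 (Gads). Replicate numbers paired the WT spleen and mLN samples, and with the replicate number as a block 12 genes were called higher and 10 lower. The backgrounds above belong to the fit without a block. The share of all genes called in the fit with the block is not given here, so its count is set against no background. WT spleen replicate 3 had no partner and carried no weight in that fit, and leaving it out without a block already added Fyb and Lat. The calls that the fit with the block added were Cd3g, Cd247, Txk, Lat, Lcp2, Fyb, Sh2d2a, Cd28 and Ptpn22 (higher) and Cd6 and Dgkz (lower).

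In KO T cells, 23 of the 44 genes (52.3%) were called between mLN and spleen, against 25.5% of 14240 genes tested, and against 33.7% of the genes at least as abundant as the lowest of the 44. The 12 genes higher in mLN (background 11.8%) included all 3 of the WT calls and also Cd247, Cd28, Cd3g, Fyb, Lat, Nfatc3, Ptprc, Sh2d2a and Tespa1. The 11 lower genes (background 13.7%) included all 8 of the WT calls and also Cd3e, Csk and Dgkz. The 44 genes were measured with smaller errors than genes at large (median SE of the log2 fold change 0.08, against 0.16 over all genes tested), and their median absolute log2 fold change was 0.22 against 0.27.

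Of the 11 WT calls, 8 held in all 7 fits without 1 sample (Cbl, Cd3d, Dgka, Nfatc1, Nfatc2, Pag1, Plcg1 and Rasgrp1), and of the 23 KO calls 15 held in all 8. The KO calls that did not were Cd3e, Cd3g, Fyb, Grap2, Lat, Ptprc, Sh2d2a and Tespa1.

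No samples were shared between the WT and KO organ comparisons. The 11 genes called in WT were 100% of the WT calls and 47.8% of the KO calls, and each was called in the same direction. Over all 44 genes, 40 had the same sign of the difference in both genotypes, as did all 12 that were called in KO and not in WT. The genotype by organ interaction was called by edgeR for 0 of the 44 genes and for 0 of 15438 genes tested (background 0%), and DESeq2 likewise called 0 of the 44. At an unadjusted p below 0.05 there was 1 gene of the 44, the weakly expressed Sos1 (interaction log2 -0.52 ± 0.22), and 652 of all genes.

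**Figure D2:**
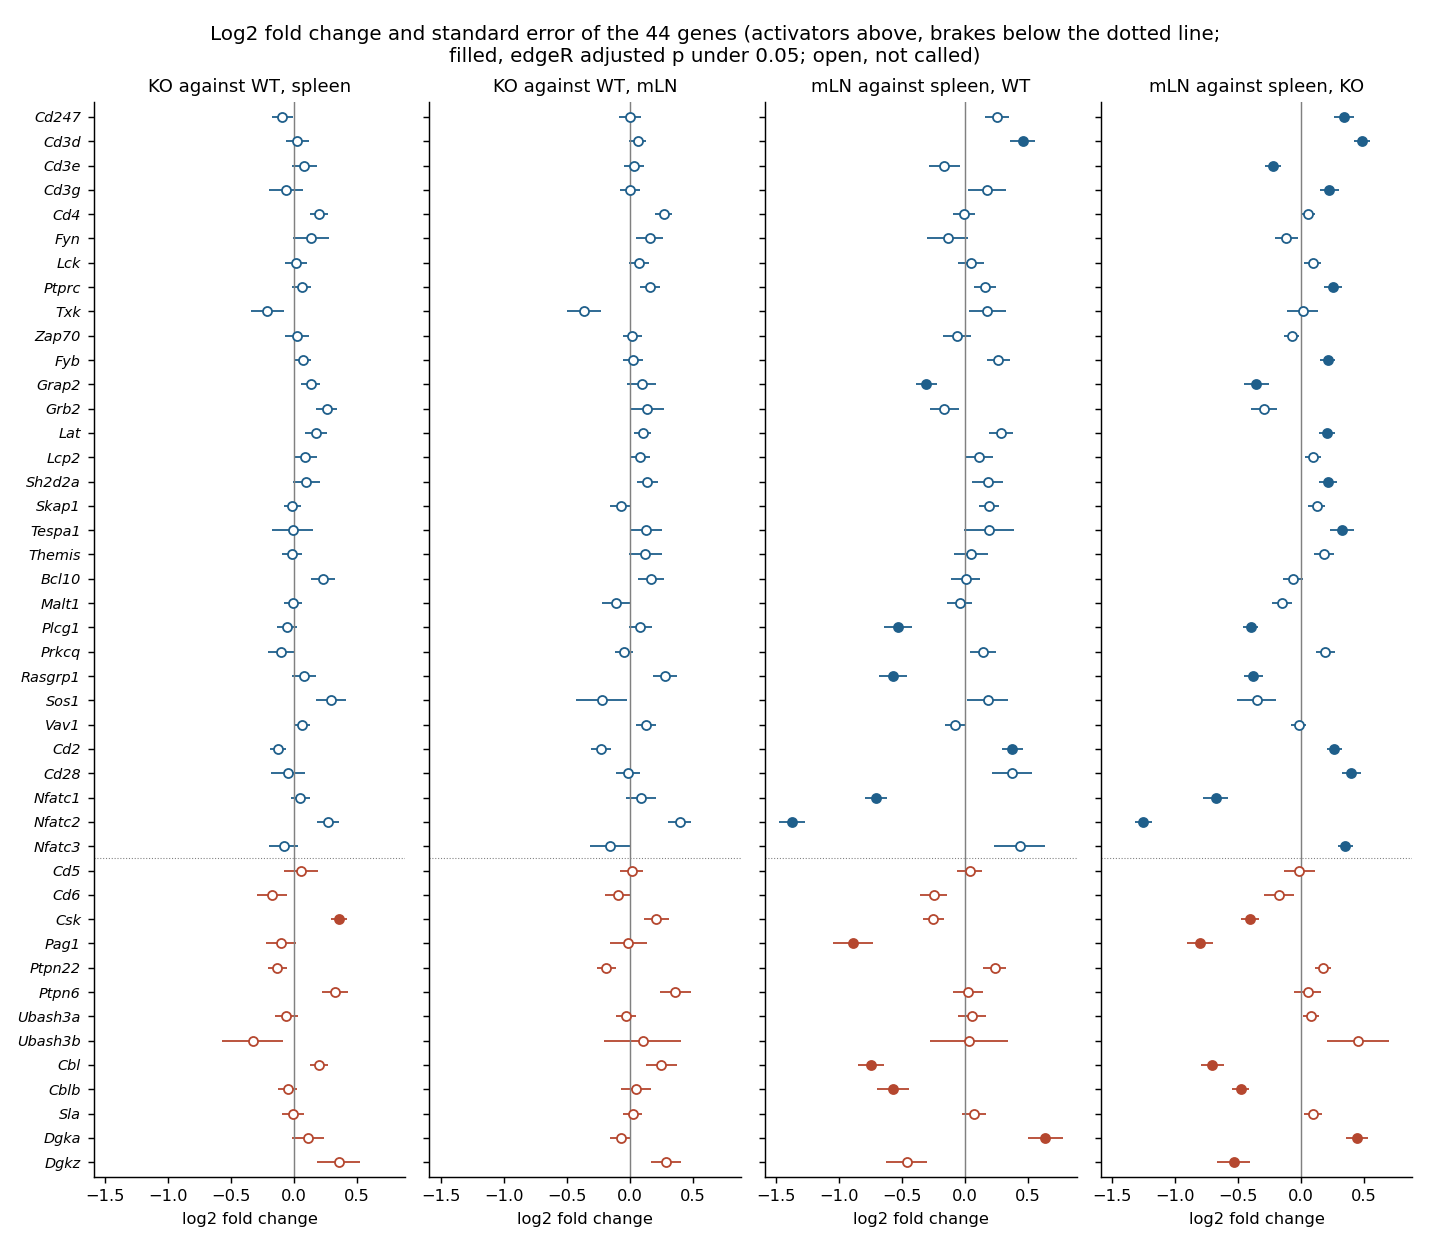
Log2 fold change (x axis) with its standard error for the 44 genes (y axis, ordered by role, activators in blue and brakes in red) in the 4 comparisons. Filled points are called by edgeR at an adjusted p below 0.05. A single point, Csk, is filled in the genotype panel of the spleen and none in that of the mLN, against 11 and 23 in the organ panels.

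The transcription factors had the largest median organ difference of any role in both genotypes (log2 fold change -0.71 in WT and -0.68 in KO), with 2 of 3 genes lower in mLN. Nfatc2 stood at 218, 199, 207 and 165 CPM in WT spleen and at 77.3, 74.7 and 78.1 CPM in WT mLN. In KO T cells it stood at 235, 238, 223 and 257 CPM in spleen and at 94.1, 99.3, 103 and 108 CPM in mLN. The lowest spleen sample was well above the highest mLN sample in both genotypes. From spleen to mLN it fell by 61.4% in WT (log2 fold change -1.37 ± 0.10, edgeR adjusted p = 0.000154) and fell by 57.98% in KO (-1.25 ± 0.07, adjusted p = 1.1e-06), the largest fall of the 44 genes in both. It was also the 1 gene of the 44 called at a log2 fold change of at least 1.

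Nfatc1, which NFAT proteins themselves induce on activation, fell in mLN as well. Its level was 377, 388, 428 and 345 CPM in WT spleen and 235, 239 and 237 CPM in WT mLN. In KO it was 412, 418, 394 and 373 CPM in spleen and 209, 267, 299 and 233 CPM in mLN. Organs did not overlap in either genotype, although KO mLN was more spread (SD 39.3 CPM) than WT mLN (SD 1.92 CPM). It fell by 38.8% in WT (log2 fold change -0.71 ± 0.09, edgeR adjusted p = 0.000965) and fell by 37.5% in KO (-0.68 ± 0.10, adjusted p = 0.000709).

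Nfatc3 went the other way. It was 125, 123, 124 and 128 CPM in KO spleen and 165, 153, 164 and 162 CPM in KO mLN, a rise of 27.8% (log2 fold change 0.35 ± 0.06, edgeR adjusted p = 0.00148). In WT it was 147, 127, 99.7 and 155 CPM in spleen and 222, 123 and 193 CPM in mLN, where 1 mLN sample lay inside the spleen range and the gene was not called. The KO call was lost in the fit of all 15 samples (adjusted p = 0.0802), which applies 1 dispersion per gene to WT and KO.

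Plcg1 and Rasgrp1, the enzyme that makes diacylglycerol and a sensor of it, were both lower in mLN. Plcg1 was 240, 284, 258 and 218 CPM in WT spleen and 163, 191 and 166 CPM in WT mLN. Its KO levels were 247, 241, 233 and 242 CPM in spleen and 177, 180.4, 190.3 and 189 CPM in mLN. Organs did not overlap, and Plcg1 fell by 30.9% in WT (edgeR adjusted p = 0.0091) and fell by 24.2% in KO (adjusted p = 0.000575).
Rasgrp1 averaged 433 ± 54.4 CPM in WT spleen and 293 ± 21.8 in WT mLN, and 459 ± 26.9 and 356 ± 32.1 CPM in KO spleen and mLN. The organs again did not overlap in either genotype. It fell by 0.57 in WT and fell by 0.38 in KO on the log2 scale (edgeR adjusted p = 0.00768 and 0.00404). The other enzymes and relays, Vav1, Sos1, Prkcq, Bcl10 and Malt1, were not called in either genotype.

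The ubiquitin ligases fell together. Cbl was 129, 151.5, 149 and 129 CPM in WT spleen and 83.0, 92.5 and 75.6 CPM in WT mLN, and 165, 166, 153 and 159 CPM in KO spleen and 87.5, 92.7, 103 and 116 CPM in KO mLN. Its lowest spleen sample exceeded its highest mLN sample in each genotype. It fell by 40.5% in WT (log2 fold change -0.75 ± 0.10, edgeR adjusted p = 0.00158) and fell by 38.5% in KO (-0.70 ± 0.09, adjusted p = 0.000224).
Cblb, its paralogue and a restraint on T cells that lack costimulation, averaged 146 ± 14.8 CPM in WT spleen and 98.4 ± 16.6 in WT mLN, and 141 ± 3.44 and 102 ± 6.54 CPM in KO. The organs did not overlap, and Cblb fell by 32.8% in WT (edgeR adjusted p = 0.0134) and fell by 28.2% in KO (adjusted p = 0.000552). The WT call was lost without WT mLN replicate 2 (adjusted p = 0.0528). Sla, the adaptor that brings Cbl to the receptor, was not called, with log2 fold changes of 0.07 in WT and 0.10 in KO.

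Pag1, the membrane anchor of Csk, was the brake with the largest fall. It was 53.7, 59.7, 45.0 and 70.0 CPM in WT spleen and 36.3, 28.1 and 28.7 CPM in WT mLN. In KO it was 50, 57.7, 50.8 and 54.7 CPM in spleen and 33.9, 32.2, 26.3 and 31.01 CPM in mLN. No mLN sample reached the spleen range, and Pag1 fell by 46% in WT (log2 fold change -0.89 ± 0.16, edgeR adjusted p = 0.00534) and fell by 42.7% in KO (-0.80 ± 0.10, adjusted p = 0.000232). Csk itself fell by 24.5% from KO spleen to KO mLN (adjusted p = 0.0021), and in WT the difference was not called (log2 fold change -0.25 ± 0.08, adjusted p = 0.0553).

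The 2 diacylglycerol kinases moved in opposite directions. Dgka was 354, 426, 314 and 472.5 CPM in WT spleen and 625, 559 and 654 CPM in WT mLN. In KO it was 456.5, 470.2, 365.5 and 402 CPM in spleen and 609, 615, 569 and 540 CPM in mLN. The mLN samples lay above all spleen samples of their genotype, by 55.3% on average in WT (log2 fold change 0.64 ± 0.14, edgeR adjusted p = 0.0122) and 36.3% in KO (0.45 ± 0.09, adjusted p = 0.00324). Dgkz averaged 133 ± 23.8 CPM in KO spleen and 92.4 ± 12.4 CPM in KO mLN, where it fell by 30.98% (adjusted p = 0.0116), and its difference of -0.46 ± 0.17 in WT was not called without the replicate block (adjusted p = 0.0735).

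Within the receptor complex, Cd3d was the chain with the clearest organ difference. It was 479, 433, 575 and 473 CPM in WT spleen and 686, 655 and 689 CPM in WT mLN, and 484, 473, 526 and 518 CPM in KO spleen and 749, 694, 708 and 678 CPM in KO mLN. Organs did not overlap. The rise was 37.1% in WT (log2 fold change 0.46 ± 0.10, edgeR adjusted p = 0.0137) and 40.1% in KO (0.49 ± 0.06, adjusted p = 0.000215).
Cd247 (the zeta chain) averaged 306 ± 24.9 CPM in KO spleen and 391 ± 32.8 CPM in KO mLN, a rise of 26.6% (adjusted p = 0.00959). It shares 3007 bases of exon with Pou2f1 on the opposite strand, and the strand setting of the counting is not given in the sources used here, so its reads may include some of that gene. Cd3e went against the other chains, with 1561, 1505, 1570 and 1582 CPM in KO spleen and 1452, 1289, 1408 and 1243 CPM in KO mLN. It fell by 14.1% (adjusted p = 0.0275), a call lost in 5 of the 8 fits without 1 sample. In WT, Cd3e was 1347, 1298, 1808 and 1402 CPM in spleen and 1306, 1218 and 1417 CPM in mLN, so the organs overlapped and the gene was not called. Cd4 was not called between organs (log2 fold changes -0.01 in WT and 0.06 in KO).

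Cd2, an adhesion and costimulatory receptor, was 706, 628, 719 and 680 CPM in WT spleen and 861, 947 and 865 CPM in WT mLN. In KO it was 632, 619, 620.1 and 635 CPM in spleen and 819, 778, 746 and 699 CPM in mLN. Each mLN sample exceeded all spleen samples of its genotype, with rises of 29.6% in WT (edgeR adjusted p = 0.0137, and 0.0509 without WT mLN replicate 2) and 20.3% in KO (adjusted p = 0.0091). Cd28 was 444, 448, 388 and 376 CPM in KO spleen and 590.3, 566, 528 and 523 CPM in KO mLN, a rise of 32.1% (adjusted p = 0.00312). In WT, 1 spleen sample (557 CPM) lay within the mLN range (494 to 638 CPM), and Cd28 was not called without the block.

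Of the adaptors, Grap2 fell and Lat rose. Grap2 was 195, 199, 186 and 184 CPM in WT spleen and 149, 147 and 169.9 CPM in WT mLN, without overlap (it fell by 19.3%, edgeR adjusted p = 0.0289). In KO, 1 mLN sample at 199.9 CPM lay within the spleen range of 193 to 238 CPM (it fell by 21.7%, adjusted p = 0.0214). Both calls were lost in 4 of the fits without 1 sample. Lat was 1700, 1738, 1668 and 1963 CPM in KO spleen and 1987, 2094, 1966 and 2196 CPM in KO mLN (a rise of 15.5%, adjusted p = 0.0389, lost in 5 of the 8 fits without 1 sample), and in WT the 3 mLN samples (1901, 1940 and 1909 CPM) lay above the 4 spleen samples (1447 to 1811 CPM) without a call. Lck and Zap70 were not called between organs, with log2 fold changes between -0.07 and 0.09 in both genotypes.

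In the edgeR fits with every sample and without a block, 21 of the 44 genes were called in none of the 4 comparisons, 14 activators and 7 brakes. Other fits did call some of them, among them Txk, Lcp2, Cd6 and Ptpn22 in WT with the replicate number as a block and Cd4 in mLN by DESeq2. They comprise the kinases Lck, Zap70, Fyn and Txk, the coreceptor Cd4, the adaptors Lcp2, Grb2, Skap1 and Themis, the relays Vav1, Sos1, Prkcq, Bcl10 and Malt1, and the brakes Cd5, Cd6, Ptpn22, Ptpn6, Ubash3a, Ubash3b and Sla. Their log2 fold changes lay between -0.33 and 0.33 for KO against WT in spleen, -0.36 and 0.36 in mLN, -0.25 and 0.23 for mLN against spleen in WT and -0.35 and 0.46 in KO. The outermost value in KO belonged to Ubash3b, a relative of Ubash3a with 24.1 ± 4.42 CPM in KO spleen and 33.3 ± 13.2 CPM in KO mLN.

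**Figure D3:**
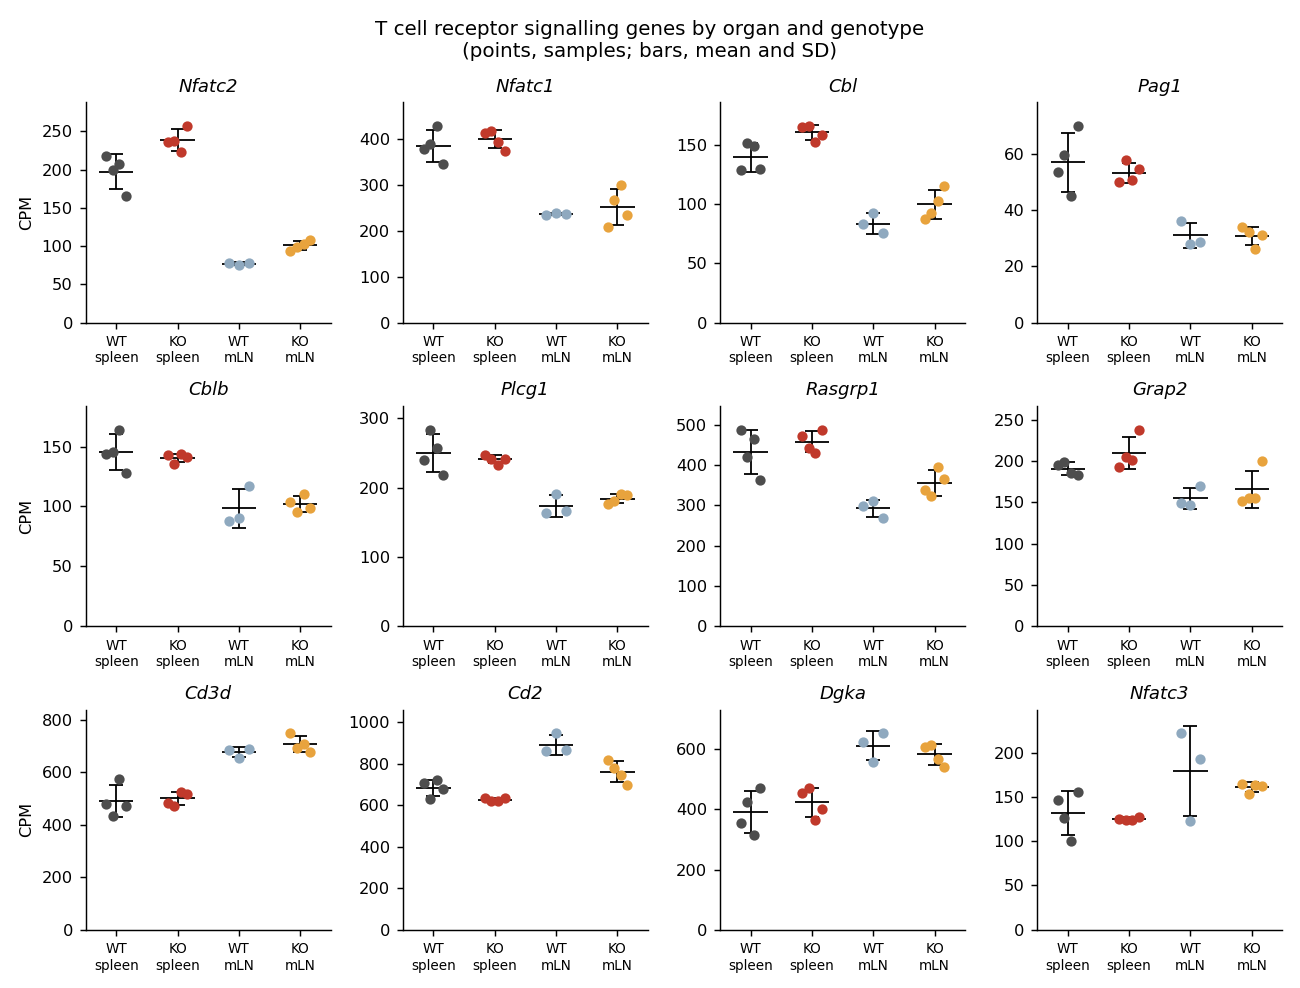
CPM (y axis, from 0) of 12 signalling genes in each sample (points), with the mean and SD (bars), in WT and KO T cells of spleen and mLN (x axis). Nfatc2, Nfatc1, Cbl, Pag1, Cblb, Plcg1 and Rasgrp1 are lower in every mLN sample than in any spleen sample of the same genotype, Cd3d, Cd2 and Dgka are higher, and Nfatc3 and Grap2 each have 1 mLN sample inside a spleen range.

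**Figure D4:**
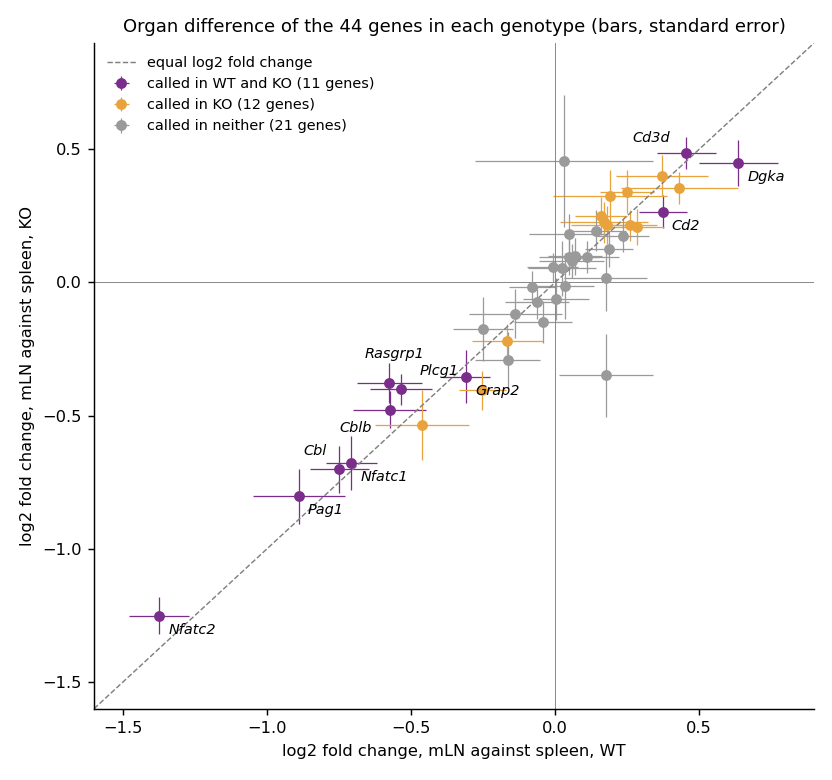
Log2 fold change of mLN against spleen in WT (x axis) and in KO (y axis) for the 44 genes, with standard errors. The 11 genes called in both genotypes (named) fall on the same side of 0 in both and near the line of equal change, from Nfatc2 at -1.37 and -1.25 to Dgka at 0.64 and 0.45.

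The genes lower in mLN had a greater exon length than those higher, among the signalling genes as among all genes. Exon length was the union of all annotated exons of a gene, and the length of the transcripts expressed was not measured. In WT the median exon length was 8718 bases for the 8 lower and 1815 bases for the 3 higher genes, and over all genes called it was 5894 bases for lower and 2642 bases for higher. In KO the medians were 7469 bases for the 11 lower and 5356 bases for the 12 higher genes, and 5572 and 2962 bases over all genes called. Across genes within these libraries, the WT log2 fold change had a Pearson correlation with log2 exon length of -0.29 over the 44 genes. Over 14497 genes it was -0.15. The KO values were -0.28 and, over 14221 genes, -0.10. By rank (Spearman), the WT value was -0.19 for the 44 genes, against -0.25 for all genes. Both sets had a KO value of -0.21. The larger Pearson values of the 44 genes were thus not seen by rank. With the GC percent of a gene, the Pearson correlation over the 44 genes was -0.26 (WT) and -0.28 (KO). All genes gave -0.06 and -0.10. These are descriptions over genes that share libraries. The share of uniquely mapped reads assigned to no gene, for which the strand setting of the counting is not given in the sources used here, also differed, at 60.4% to 63.4% in spleen and 58.4% to 61.0% in mLN, as did the myeloid marker sum. The part of exon length, of GC percent, of these reads and of other cells in the organ differences was not tested.

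Averaged over each class on the log2 CPM scale, brakes had lower means in mLN than in spleen while the activator means lay close together. The activator mean was 8.44 ± 0.06 in WT spleen, 8.50 ± 0.03 in KO spleen, 8.45 ± 0.04 in WT mLN and 8.50 ± 0.03 in KO mLN (SD, n = 4, 4, 3 and 4). The brake mean was 7.84 ± 0.05, 7.90 ± 0.06, 7.70 ± 0.04 and 7.77 ± 0.10 in the same order, without overlap between organs in WT and with ranges that overlapped at their ends in KO (7.853 to 7.978 in spleen and 7.673 to 7.858 in mLN). Activators minus brakes ranged from 0.552 to 0.632 over the 8 spleen samples and from 0.639 to 0.821 over the 7 mLN samples, so the organs did not overlap. Within each organ the WT and KO ranges overlapped. The class mean weights each gene equally, and the difference contains the falls of Pag1, Cbl and Cblb described above. The median log2 fold change of the 13 brakes from spleen to mLN was 0.02 in WT, with 7 above 0, and -0.01 in KO, with 6 above 0.

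**Figure D5:**
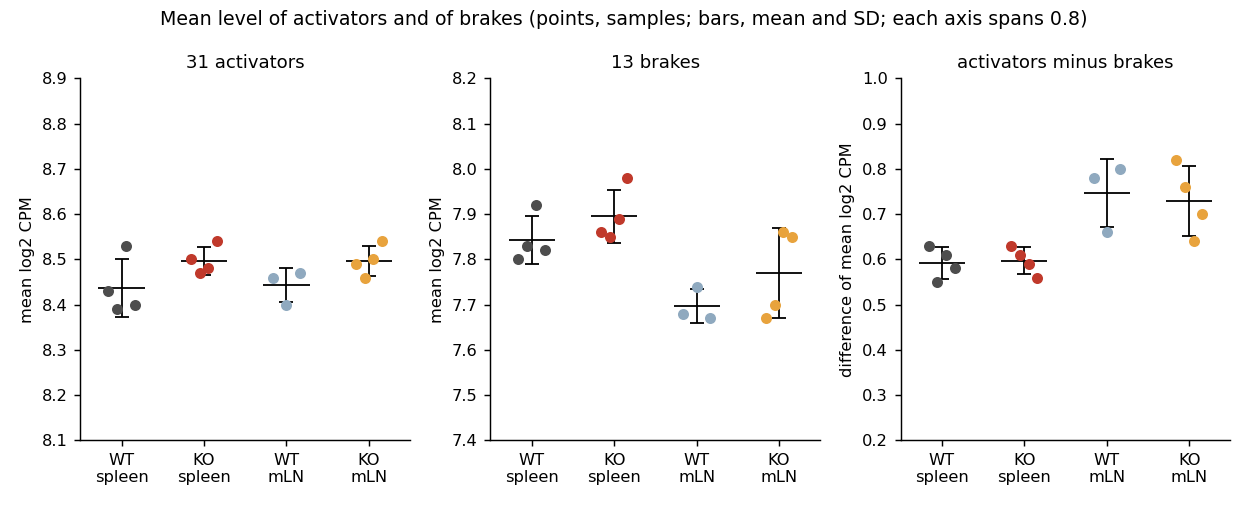
Mean log2 CPM of the 31 activators, of the 13 brakes, and their difference (y axes, each spanning the same width and not starting at 0) per sample, with mean and SD, in the 4 groups (x axis). The difference is 0.552 to 0.632 in spleen and 0.639 to 0.821 in mLN.

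Other genes of the pathway were read from 3 further lists. Of 4 receptor chain genes, Trbc2 was higher in mLN in both genotypes (WT 702 ± 99.99 CPM in spleen and 984 ± 109 in mLN, log2 fold change 0.48, edgeR adjusted p = 0.0264), and Trac and Trbc1 were called higher in mLN in KO (adjusted p = 0.00418 and 0.0129). No receptor chain was called between genotypes. Trbc1 and Trbc2 are near-identical copies, so their reads cannot be fully told apart.
Of 52 other signalling genes, 11 were lower and 1 higher in mLN in WT, and 14 were lower and 2 higher in KO. These were 23.1% and 30.8% of the list, against backgrounds of 20.5% (10.8% lower) in WT and 25.5% (13.7% lower) in KO. The inositol trisphosphate receptor Itpr3, which releases stored calcium, fell by 0.89 in WT and fell by 1.26 in KO on the log2 scale from spleen to mLN, and Itpr2, the calcium channel subunit Orai2, and Was and Wipf1, which link the receptor to actin, were also called lower in both. Between genotypes, Nck1 (101 ± 5.17 CPM in KO spleen, 72.3 ± 6.20 in WT spleen, adjusted p = 0.0256) and the calcium sensor Stim2 (171 ± 23.8 and 111 ± 14.4 CPM, adjusted p = 0.0444) were higher in KO spleen. In mLN the phosphatase Ptpn11 was higher in KO (168 ± 21.3 against 111 ± 4.99 CPM, adjusted p = 0.0447), the single call of the list there. The genotype calls made up 3.85% of the list in spleen and 1.92% in mLN, against 1.3% and 0.641% of all genes tested. Counts this small do not set the list apart from the background.

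Of 17 genes that receptor signals induce, 4 were called between genotypes in spleen, against the same background of 1.3%. Il2ra, the high-affinity chain of the interleukin-2 receptor, was 111 ± 21.1 CPM in WT and 49.7 ± 8.76 in KO (log2 fold change -1.16, edgeR adjusted p = 0.0123), and Myc was 98.0 ± 25.3 and 49.7 ± 10.7 CPM (-0.98, adjusted p = 0.0453). Nfkbid, an atypical NF-κB inhibitor, and Cd40lg, the ligand that T cells use to help B cells, were higher in KO, by 0.77 and 0.50 on the log2 scale. The induced genes therefore moved both ways. In mLN edgeR called 0 of the 17, with 10 at an unadjusted p below 0.05 (15.7% of all genes), among them Il2ra (log2 fold change -1.29, adjusted p = 0.139) and Myc (-0.91, adjusted p = 0.077).
Between organs, 4 of the 17 (23.5%, against 20.5% of all genes) were higher and 0 lower in WT mLN, with Myc at 187 ± 47.8 CPM against 98.0 in spleen (adjusted p = 0.0198). In KO mLN 2 were higher and 5 lower (41.2%, against 25.5% of all genes), with Egr1, an immediate early transcription factor, at 47.9 ± 6.51 CPM against 100.2 ± 4.80 in spleen (log2 fold change -1.08, adjusted p = 2.93e-05) and the activation marker Cd69 at 286 ± 79.7 against 550 ± 44.4 CPM (-0.95, adjusted p = 0.00148). Myc and Tnfrsf4 were called higher in mLN in both genotypes. For Cd69, whose log2 fold change in WT was 0.26 and not called, the interaction was -1.21 ± 0.27 (unadjusted p = 0.000436, edgeR adjusted p = 0.824).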

How the data were processed

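RNA of sorted donor CD4+ T cells was made into libraries with a low-input NEBNext kit and sequenced on a NextSeq500 in single-end mode with 75 bases. The authors aligned reads with STAR 2.6.1a to GRCm38 with GENCODE M23 genes and deposited raw read counts per gene as STAR counted them. The submitters' processing notes also name bcl2fastq 2.19.1.403, RSEM and DESeq2 1.22.2. Symbols and exon lengths came from GENCODE M21, which matched 55240 of the 55421 gene rows. The 44 genes and the pathway and marker lists were chosen with earlier results of these data known.

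CPM was counts divided by the reads on genes, after each sample's total was multiplied by its TMM factor. The factors were computed over all 15 samples and ran from 0.9636 to 1.035. Tests used the quasi-likelihood test of edgeR 4.0.16 (TMM, filterByExpr, Benjamini-Hochberg over all genes, threshold 0.05), 1 fit per comparison, and 1 fit of all 15 samples for the interaction. The script was tested on simulated data. Alternatives were DESeq2 1.42.0, other normalizations and filters, a log2 fold change minimum of 1, a replicate block, and leaving out each sample. Samples of a group carry separate replicate numbers, with 4 mice per group per the study, but labels do not tie samples to mice, so p-values measure the spread between these samples. Deviations of same-numbered WT spleen and mLN samples correlated at 0.243 to 0.291, which pairs them by the data and not by the labels. The organ and interaction fits without a block take no account of mice that gave both organs. Genes were named if called in a comparison or fixed in a list of 10 central genes. Ptpn6, Cd247, Dgkz, Sos1, Txk, Ptpn22 and the genes named only inside a list of calls were chosen after their values were seen. Depth of 9363940 to 11283439 reads on genes put each of the 44 genes at 126 counts or more in every sample.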

Additional observations from a re-analysis of the deposited data

Results flagged for a closer look

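Of 63 groups of 4 samples examined (21 named genes in 3 groups), 3 had a sample set apart from the others by Dixon's criterion, and chance flags about 1 in 20 groups. Lck in KO spleen replicate 4 stood at 1876 CPM, with the next sample at 1647 CPM and a gap of 0.956 of the group's range. Grap2 in KO mLN replicate 4 stood at 199.9 CPM, with the next sample at 155.4 CPM and a gap of 0.928 of the range. Ubash3a in KO spleen replicate 2 stood at 411.2 CPM, with the next at 401.5 CPM and a gap of 0.872 of a narrow range. Without KO mLN replicate 4, Grap2 was still called lower in KO mLN than in KO spleen, and edgeR with every sample called Lck and Ubash3a in no comparison.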

How the results depend on the processing

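Leaving out 1 sample gave 0 to 1 signalling genes higher in KO spleen and 12 to 324 genes of all (185 with every sample), the count moving by more than 1.5 times in each of the 8 fits. In mLN it gave 0 signalling genes and 4 to 117 genes of all (92 with every sample). Between organs it gave 3 to 5 higher and 6 to 8 lower genes in WT, with 5 without WT spleen replicate 3, and 1838 to 2780 genes of all, the lowest without WT spleen replicate 1. In KO it gave 7 to 10 higher and 9 to 13 lower, with 7 without KO spleen replicate 2, and 2642 to 3669 of all.

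DESeq2 called 840 genes between genotypes in spleen, 588 in mLN (2 of the 44, higher) and 4 for the interaction. Between organs in WT it called 15 of the 44 (34.1%, against 23.4% of all genes), 5 of them higher in mLN. Without a filter on low counts the genotype counts were 1422 in spleen (4 of the 44 higher) and 913 in mLN (1 higher). The interaction count was then 112, and 5 of the 44 were higher in WT mLN. The fit of all 15 samples called 85 in spleen and 500 in mLN (2 of the 44 higher), and 8 of the 44 higher in WT mLN. For the unfiltered fit and the fit of all 15 samples, the share of all genes called between organs is not given here. Their WT organ counts are therefore set against no background. With a log2 fold change minimum of 1, edgeR called 64 genes in spleen (0 of the 44), 47 in mLN, 723 between organs in WT and 765 in KO, with 0 of the 44 higher and 1 lower in each genotype.

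With the replicate block, 17 genes were called between genotypes in spleen (0 of the 44), 1 in mLN and 3 for the interaction, and 12 of the 44 were higher in WT mLN. Between genotypes same-numbered samples correlated at -0.21 to 0.15. In the KO organ comparison they correlated at 0.03 to 0.26, not over 0.1 in every pair, so they were not treated as paired, and the block gave 13 higher and 12 lower. The share of all genes called between organs with the block is not given here, so these counts are set against no background. No called difference between groups changed direction, while uncalled ones near 0, such as Lck and Cd5 in spleen, did in fits without 1 sample. The cause of the changes was not tested.

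RLE, no normalization factor, and a minimum of 10 counts in every sample kept every count within 1.5 times.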
